A study of Mus musculus with 39 samples.

Results

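The aryl hydrocarbon receptor (AHR) is a ligand-activated transcription factor that waits in the cytoplasm bound to HSP90 chaperones and the co-chaperone p23. On binding a planar ligand such as dioxin or a plant indole it enters the nucleus, pairs with ARNT and binds short DNA sites with the core GCGTG, called xenobiotic response elements. The genes described here are 5 of its best-known targets: Cyp1a1, Cyp1a2 and Cyp1b1, cytochrome P450 enzymes that oxidise polycyclic aromatic compounds, and Ahrr and Tiparp, which encode the AHR repressor and the mono-ADP-ribosyltransferase TIPARP, both feedback inhibitors of the receptor. They were taken by symbol, and all 5 were among the 54735 genes of the normalised read count tables of mouse liver and spleen. PCB-153, the chemical given in this study, is a polychlorinated biphenyl that is not dioxin-like: its chlorines keep it from lying flat, and it is known for acting on the receptors CAR and SXR/PXR rather than on AHR.

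Bulk RNA was sequenced from 20 livers and 19 spleens of 4-week-old C57BL/6 animals. They were either wild type or knockout for the xenobiotic receptor SXR/PXR, which Nr1i2 encodes. Exposure began perinatally, with PCB-153 at about 54 µg/kg/day or with DMSO as its vehicle. The 4 groups per tissue were therefore wild type with vehicle, wild type with PCB-153, knockout with vehicle and knockout with PCB-153. Each group had 5 libraries, except wild-type vehicle spleen with 4 (replicates 1, 3, 4 and 5). The sex, the litters, the deleted exons and whether each library came from its own animal are not stated in the labels, so the p-values measure the spread between these samples only.

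The libraries held 15.23 M to 28.65 M recovered reads in liver and 16.1 M to 29.52 M in spleen. Nr1i2 was lower in knockout livers (714 ± 192 with vehicle and 862 ± 215 with PCB-153, normalised reads, mean ± SD, n = 5) than in wild-type livers (1572 ± 178 and 1395 ± 390), but its reads over the whole gene do not separate the deleted part. In spleen Nr1i2 went against the labels: the libraries labelled knockout held 42.9 to 62.8, and the libraries labelled wild type 0 to 2.27. Spleens are therefore called labelled knockout and labelled wild type, and every direction between spleen genotypes rests on those labels. Liver libraries held high levels of hepatocyte genes (Alb, Apoa1, Ttr and 4 others summed, 2008831 to 2715988), and spleen libraries held B cell genes (16424 to 37955). In spleen, replicate 1 of labelled wild type with PCB-153 and replicate 4 of labelled knockout with vehicle stood apart with hepatocyte genes summed to 4052 and 12501, against at most 1468 elsewhere. Replicates 1 and 4 of labelled knockout with PCB-153 stood apart with pancreatic enzyme genes summed to 7190 and 56155, against at most 794 elsewhere.

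The sequences next to the start sites show where the receptor's DNA core occurs. In the mouse genome (GRCm38), Cyp1a1 (ENSMUSG00000032315.6, chr9:57687928-57703824, plus strand) and Cyp1a2 (ENSMUSG00000032310.4, chr9:57676937-57683703, minus strand) lie side by side and are read away from each other, with RefSeq starts 13958 bases apart. Cyp1b1 lies at chr17:79701537-79715061 (minus strand), Ahrr at chr13:74211118-74292331 (minus strand) and Tiparp at chr3:65528410-65555518 (plus strand), where it overlaps the antisense gene 4931440P22Rik. The 250 bases before the RefSeq start (GRCm38.p6) were searched for GCGTG on both strands. Cyp1a1, Cyp1b1 and Tiparp held 1 match each, Ahrr held 3 and Cyp1a2 held none. Of 32817 promoter windows of that length in the RefSeq table, 28.1% held at least 1 match and 2.77% held 3 or more. The 3 windows printed here contain no annotated exon, and show a single core on either strand beside a repeated one. They cover chr9:57697363-57697612 (plus strand, within an intron of the longer Cyp1a1 transcript), chr17:79715062-79715311 (minus strand) and chr13:74292332-74292581 (minus strand), each written 5′ to 3′ toward the gene, with matches in capitals (CACGC is GCGTG read on the other strand).
Cyp1a1: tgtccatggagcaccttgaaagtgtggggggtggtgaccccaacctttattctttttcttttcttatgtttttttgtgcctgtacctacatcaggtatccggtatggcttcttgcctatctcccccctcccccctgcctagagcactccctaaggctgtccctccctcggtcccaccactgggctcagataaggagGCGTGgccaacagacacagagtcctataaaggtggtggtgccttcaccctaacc
Cyp1b1: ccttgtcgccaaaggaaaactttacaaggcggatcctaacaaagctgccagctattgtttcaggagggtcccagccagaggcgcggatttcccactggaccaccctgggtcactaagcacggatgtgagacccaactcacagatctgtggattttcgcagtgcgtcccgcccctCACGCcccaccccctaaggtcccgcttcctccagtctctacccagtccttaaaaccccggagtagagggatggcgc
Ahrr: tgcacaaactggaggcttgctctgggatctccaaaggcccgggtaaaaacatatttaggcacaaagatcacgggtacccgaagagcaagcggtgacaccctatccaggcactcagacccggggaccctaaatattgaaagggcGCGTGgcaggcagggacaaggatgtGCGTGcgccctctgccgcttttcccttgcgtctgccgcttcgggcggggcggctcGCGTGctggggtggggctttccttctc
In the Cyp1a1 window the core stood 54 to 50 bases before the start, and in the Cyp1b1 window it stood 76 to 72 bases before it on the other strand. The matches in the Ahrr window stood 107 to 103, 82 to 78 and 27 to 23 bases before the start, and the last of them overlaps the longer form TNGCGTG, which 4.1% of windows held. These matches describe letters in the windows, not binding, and say nothing of sites farther away.

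The 2 tissues differed in which of the 5 genes stood highest. Levels between genes are compared after scaling reads for exon length and library size (RPKM), since longer genes collect more reads. In liver Cyp1a2, the constitutive hepatic P450 that metabolises caffeine, stood first at a mean of 229 (range 122 to 322 over 20 libraries). Cyp1a1 followed at 3.71 (1.59 to 5.67) and Tiparp at 0.941 (0.467 to 1.54), and these 3 ranges did not overlap. Cyp1b1 (0.0766, range 0.0177 to 0.138) and Ahrr (0.0123, range 0 to 0.0328) stood last, with overlapping ranges. In spleen Cyp1b1, a P450 of connective tissue and immune cells, stood first at 13.6 (9.22 to 19.5 over 19 libraries), followed by Tiparp at 3.77 (2.74 to 5.15), again without overlap. Spleen Cyp1a1 (0.207, range 0.0586 to 0.361), Ahrr (0.081, range 0.0361 to 0.123) and Cyp1a2 (0.0566, range 0 to 0.43) overlapped in part. The receptor itself stood at 5.62 in liver and 2.88 in spleen on this scale, and its partner Arnt at 3.34 and 7.91. The tissues were normalised separately, so no test was made between them, and in bulk tissue fewer cells of a type and less RNA per cell cannot be told apart.

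**Figure D1:**
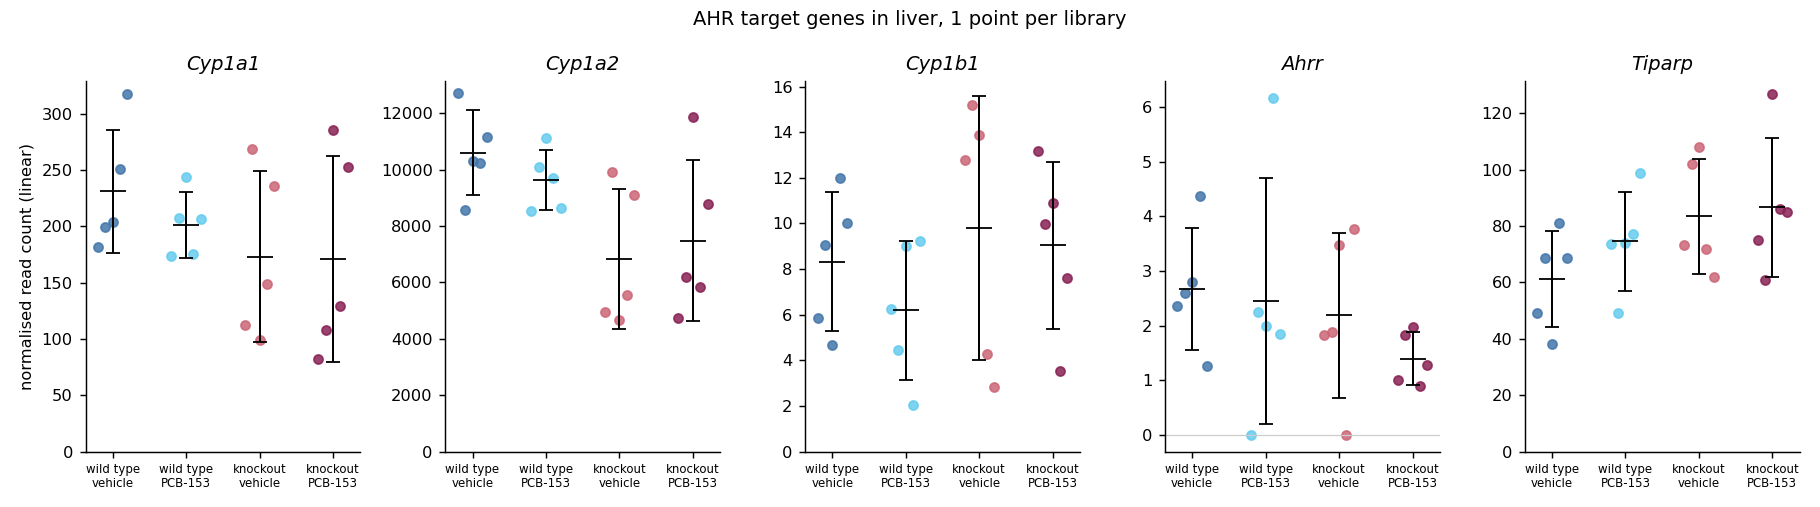
Normalised read count (vertical axis, linear) of the 5 genes in each of 20 livers by group, 1 point per library, with mean ± SD beside the points. PCB-153 and vehicle points overlap for every gene, and some knockout livers lie below all wild-type livers for Cyp1a1 and Cyp1a2.

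The first question was whether PCB-153 changed AHR target genes in liver. It was addressed gene by gene with limma on log2(normalised value + 1), with adjusted p-values (Benjamini-Hochberg) over all 16155 liver genes whose mean reached 10, and a gene was called at an adjusted p under 0.05. Cyp1a1, the gene most often used to read out AHR activity, held 182, 199, 204, 251 and 317 normalised reads in wild-type vehicle livers. With PCB-153 the wild-type values were 174, 207, 244, 175 and 206. These groups overlapped almost fully, and the difference was -0.18 on the log2 scale (95% interval -0.81 to 0.45, a fold of 0.57 to 1.37; limma adjusted p = 0.879). In the knockout, Cyp1a1 held 112, 269, 98.9, 149 and 236 with vehicle, and 81.9, 108, 285, 129 and 253 with PCB-153. Both knockout groups held low and high livers, and they differed by -0.07 (interval -0.70 to 0.56; limma adjusted p = 0.946). Averaged over both genotypes, the interval for Cyp1a1 reached a fold of 1.25 at most.

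Cyp1a2 gave the same picture with far more reads. Wild-type livers held 12722, 8567, 10294, 10247 and 11158 normalised reads with vehicle, and 8547, 10109, 11129, 9719 and 8637 with PCB-153. Knockout livers held 4938, 9922, 4664, 5543 and 9095 with vehicle, and 4721, 6203, 11867, 5839 and 8777 with PCB-153. Within each genotype the exposed and unexposed livers overlapped. The PCB-153 difference was -0.13 in wild type (fold 0.66 to 1.26; limma adjusted p = 0.876) and 0.13 in the knockout (fold 0.79 to 1.51; limma adjusted p = 0.838). Over both genotypes it was 0.00 ± 0.16 SE (fold 0.80 to 1.25; limma adjusted p = 0.993).

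Tiparp, the feedback inhibitor that is among the quickest genes to respond to AHR ligands, held 49.3, 68.5, 38.2, 81.0 and 68.8 in wild-type vehicle livers and 73.8, 49.2, 74.0, 77.1 and 98.7 in wild-type PCB-153 livers. Their difference was 0.30 (fold 0.88 to 1.71; limma adjusted p = 0.733), and the groups overlapped. In knockout livers it held 73.3, 102, 108, 71.7 and 62.0 with vehicle and 74.9, 60.8, 127, 86.0 and 85.1 with PCB-153, a difference of 0.05 (fold 0.75 to 1.43; limma adjusted p = 0.949). Of the 50-base stretches of Tiparp transcripts, 4.04% also occur in its antisense neighbour, read on either strand. Reads from that part cannot be told apart unless strand was used in counting, and the labels do not state that setting.

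Cyp1b1 and the repressor gene Ahrr were too low in liver for that test. Cyp1b1 held 36, 31, 53 and 51 reads in the wild-type vehicle, wild-type PCB-153, knockout vehicle and knockout PCB-153 groups, and Ahrr held 12, 12, 12 and 8. Group means of Cyp1b1 were 8.33, 6.2, 9.79 and 9.04 normalised reads, and those of Ahrr 2.67, 2.45, 2.19 and 1.39. An exact two-sided permutation test gave no p below 0.222 over the 4 pairwise comparisons of either gene (adjusted at least 0.804), where 0.00397 was the smallest p possible. At this depth only large changes of these genes could have been seen.

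No liver member was called for PCB-153 in wild type, in the knockout, over both or in the interaction, and the background was the same: 0% of the 16155 genes were called in each of these 4 comparisons by limma. At an unadjusted p under 0.05 limma gave 1081, 1592, 2670 and 435 genes, and no member was among them. Leaving out wild-type vehicle replicate 3 brought the limma count over both genotypes from 0 to 184 genes, again without a member. The interaction, which asks whether the PCB-153 difference differs between genotypes, was 0.11 for Cyp1a1, 0.26 for Cyp1a2 and -0.25 for Tiparp (limma adjusted p = 1 for each). With reads recovered from the normalised values, edgeR called 0 genes in all 4, and DESeq2 called 0, 55, 84 and 0 genes, without a member. As a reading of exposure through other receptors, Cyp2b10, the classic CAR target, held 967 ± 216 in knockout vehicle livers and 2168 ± 408 in knockout PCB-153 livers without overlap, a log2 difference of 1.17 that missed the threshold (limma adjusted p = 0.115). In wild-type livers Cyp2b10 held 573 ± 161 and 736 ± 299, with overlap. Cyp3a11, the classic SXR/PXR target, differed by -0.21 in wild type and 0.03 in the knockout (limma adjusted p = 0.742 and 0.963).

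The receptor complex and the wider AHR gene battery gave no call for PCB-153 in liver either. Of the receptor complex list, 6 of 7 genes were tested (Arnt2, the neural partner, was too low), and all 6 were lower in wild type with PCB-153 but none was called (median log2 difference -0.11, against -0.01 over all genes). Averaged over both genotypes the values were, among others, Ahr -0.29, Arnt -0.17, Hsp90aa1 -0.18, Hsp90ab1 -0.11 and the p23 gene Ptges3 -0.22 (limma adjusted p 0.278 to 0.498 for these 5). Ahr itself held 633 ± 215, 485 ± 142, 778 ± 63.1 and 684 ± 190 in the wild-type vehicle, wild-type PCB-153, knockout vehicle and knockout PCB-153 livers. Of 17 other AHR battery genes (such as Nqo1, a quinone reductase, and Ugt1a6a, a glucuronosyltransferase), 12 were tested, 8 were higher and 4 lower over both genotypes, and none was called (median 0.12). The nearest to a call was Htatip2 at 0.33 (limma adjusted p = 0.206), and Nqo1 gave 0.24 (0.386). Aldh3a1, Cyp2s1, Fgf21, Serpinb2 and Il22 were below the minimum mean.

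The second comparison asked whether loss of SXR/PXR changed the AHR target genes in liver. Cyp1a2 was lower in knockout livers. Averaged over both exposures the log2 difference was -0.57 ± 0.16 SE (fold 0.67, interval 0.54 to 0.85; limma adjusted p = 0.0419), with group means of 10598 ± 1514 and 9628 ± 1077 in wild type against 6833 ± 2481 and 7481 ± 2866 in the knockout (SD, n = 5 each). It was the 1 member called, where 4.56% of all 16155 genes were called. It was not called with vehicle alone (-0.70 ± 0.22 SE, limma adjusted p = 0.188, 0.607% of genes called) or with PCB-153 alone (-0.44 ± 0.22 SE, limma adjusted p = 0.509, 1.45% of genes called). The averaged comparison shares all its libraries with those 2.

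The call on Cyp1a2 was close to its threshold. It was lost in 14 of the 20 fits that left out 1 liver (without knockout vehicle replicates 1, 3 or 4, knockout PCB-153 replicates 1, 2 or 4, wild-type vehicle replicates 1, 3, 4 or 5, or wild-type PCB-153 replicates 1 to 4; limma adjusted p 0.0528 to 0.0897), while the difference stayed between -0.66 and -0.49 in all 20. It was also lost with edgeR on recovered reads (-0.49, adjusted p = 0.0832, where 4.65% of genes were called) and without the minimum mean (limma adjusted p = 0.0731), and was kept with DESeq2 (-0.50, adjusted p = 0.0367, where 6.32% of genes were called).

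Cyp1a1 leaned the same way without a call, with means of 231 ± 54.4 and 201 ± 29.0 in wild type against 173 ± 75.8 and 171 ± 91.7 in the knockout (averaged difference -0.44 ± 0.21 SE, limma adjusted p = 0.267). Tiparp leaned the other way, at 61.2 and 74.6 in wild type against 83.4 and 86.7 in the knockout (0.33 ± 0.16 SE, limma adjusted p = 0.261). Cyp1a1 and Cyp1a2 share 3.43% and 4.79% of their 50-base words with each other. Reads of the abundant Cyp1a2 could therefore be counted for the scarce Cyp1a1. How many were, and their part in the joint variation of these genes given below, was not tested.

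**Figure D2:**
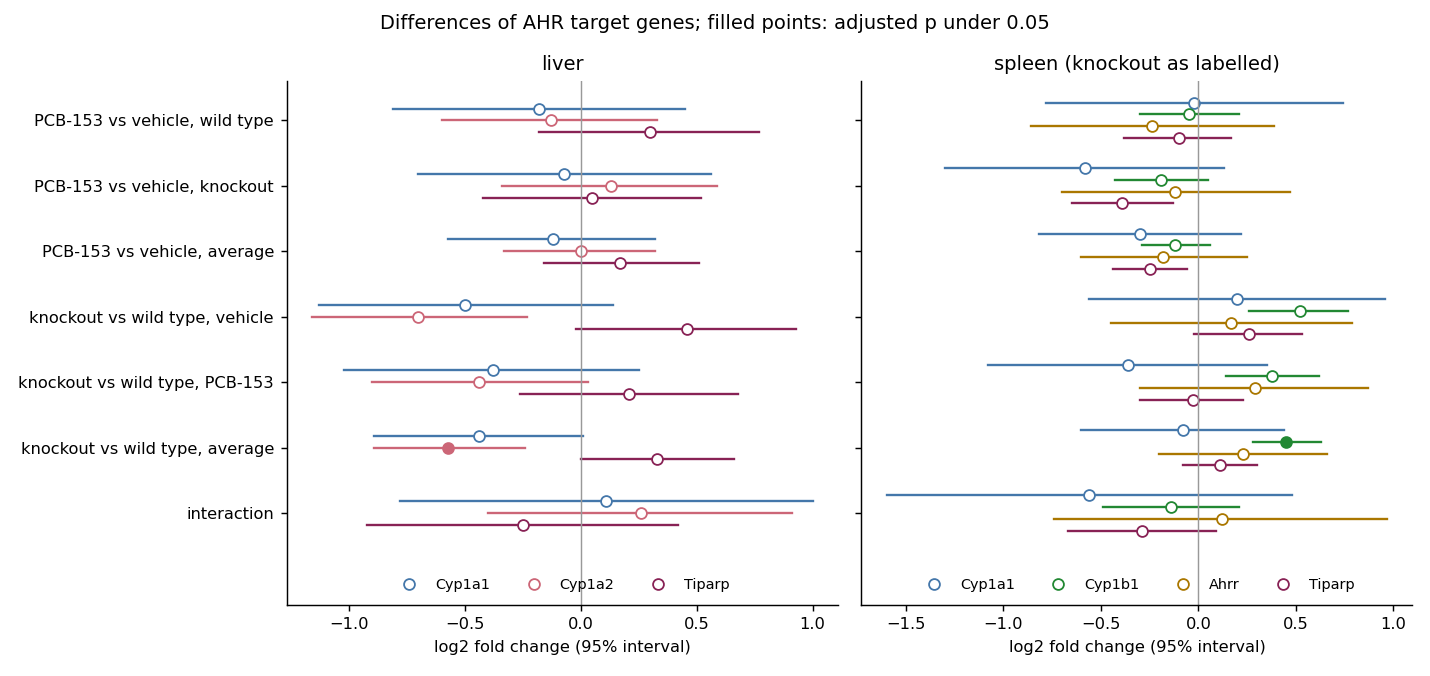
Log2 differences (horizontal axis, with 95% interval) of the tested AHR target genes in each comparison, liver on the left and spleen on the right. Filled points passed an adjusted p of 0.05 in limma: Cyp1a2 in liver and Cyp1b1 in spleen, both between genotypes averaged over exposures.

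The lower Cyp1a2 mean came from some knockout livers and not others. For both Cyp1a1 and Cyp1a2, 6 of the 10 knockout livers lay below every wild-type liver, and they were the same 6: vehicle replicates 1, 3 and 4 and PCB-153 replicates 1, 2 and 4. The other 4 lay within the wild-type range of both genes (174 to 317 for Cyp1a1 and 8547 to 12722 for Cyp1a2). Sorted by Cyp1a2, the widest gap separated these 6 livers from the other 14, from 6203 to 8547. For Cyp1a1 the same 6 were the lowest, up to 149 against 174 and above, but this was not its widest gap. Of these 6 livers 3 had received vehicle and 3 PCB-153, and whether exposure relates to the split was not tested. Over all 20 livers Cyp1a1 and Cyp1a2 varied together, with Pearson's r 0.88 on the log2 scale (permutation p = 1e-05, the smallest that 100000 permutations can give, adjusted p = 3e-05 over 3 pairs), Spearman's rho 0.79 (permutation p = 8e-05) and r 0.81 without the 2 livers farthest from the median. For deviations from the group means r was 0.88 (permutation adjusted p = 0.00114). In the 10 knockout livers alone r was 0.95 (permutation p = 0.00016; rho 0.89, p = 0.00112). In the 10 wild-type livers alone r was 0.35 (permutation p = 0.333; rho 0.49, p = 0.155), and whether the genotypes differ in r was not tested. On either side of the Cyp1a2 gap, a split by the level of Cyp1a2 itself that narrows its range, r was 0.59 in the 6 low livers (exact permutation p = 0.235; Spearman's rho 0.54, p = 0.297) and 0.30 in the other 14 (permutation p = 0.29; rho 0.41, p = 0.147). Within either side the relation could not be settled at this number of livers. Over these 4 subsets the adjusted p was 0.00064 for knockout and 0.333 for the others, and without the 2 livers farthest from the median r was 0.93 in knockout, 0.19 in wild type, 0.54 in the 6 and 0.00 in the 14. Neither gene showed a relation to Tiparp that passed a test over the 20 livers (r 0.04 for Cyp1a1 with rho 0.12, and -0.20 for Cyp1a2 with rho -0.19; permutation adjusted p = 0.867 and 0.612, over 3 pairs).

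**Figure D3:**
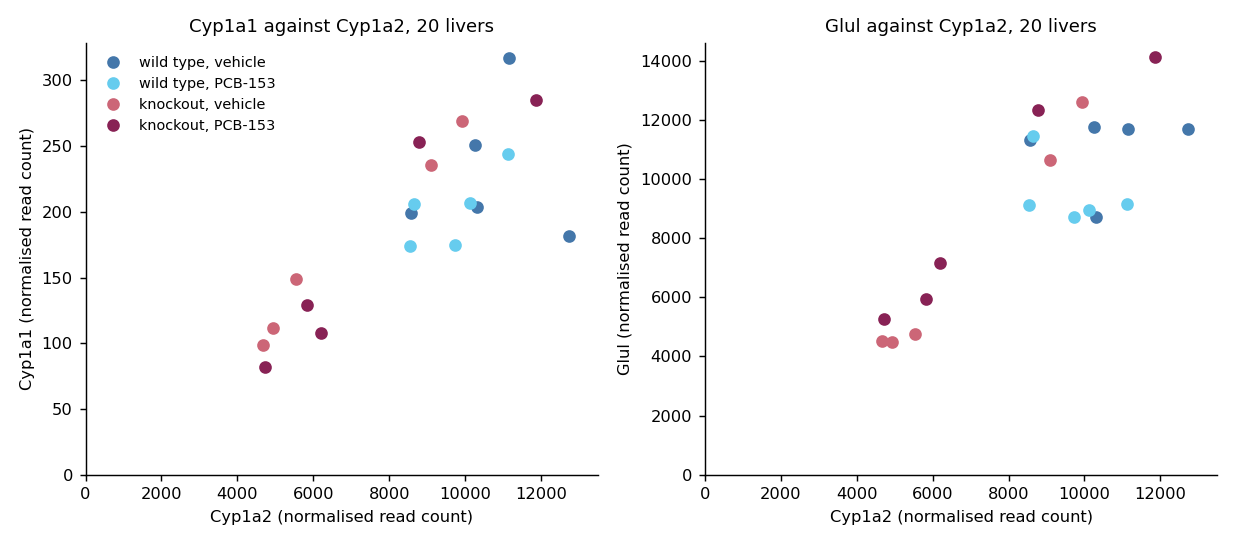
Levels of other genes against Cyp1a2 (normalised read counts, linear axes) in 20 livers, coloured by group. The 6 knockout livers at or under 6203 for Cyp1a2 stand apart at the lower left, 3 with vehicle and 3 with PCB-153.

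The genes whose library-to-library variation was most like that of Cyp1a2 included Glul, glutamine synthetase, the defining enzyme of the hepatocytes around the central vein, where Cyp1a2 is known to be expressed. The likeness is Pearson's r of deviations from the group means on the log2 scale over 20 livers, as a description, with the highest 3 of 10638 genes taken. For Cyp1a2 these were Cyp2c54 (r 0.91), Cyp2c50 (0.91) and Glul (0.89). For Cyp1a1 they included the proteasome subunit gene Psmd1 (0.90) and Wdr7 (0.89), and for Tiparp they were Cab39l (0.83), the cohesin gene Stag2 (0.82) and the ubiquitin ligase gene Cop1 (0.81). These values reach across the Cyp1a2 gap: within the 14 upper livers r with Cyp1a2 was 0.31 for Cyp2c54, 0.35 for Cyp2c50 and 0.19 for Glul, and within the 6 low livers 0.78, 0.82 and 0.79. The same 6 knockout livers were below all wild-type livers for Glul (lowest wild type 8720), 5 of them for Cyp2c50 and 4 for Cyp2c54. These genes were picked for their likeness to Cyp1a2 in the same livers, so such an overlap is no separate evidence. For Nr1i2, 9 of 10 knockout livers were below all wild types, 5 of the 6 low livers among them.

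Genes of liver zonation were compared alongside. Averaged over exposures, 9 of 10 pericentral genes were lower in the knockout but none was called (median -0.21, against a median within 0.01 of 0 over all genes), and Glul gave -0.45 (limma adjusted p = 0.216). With vehicle alone 9 of 10 were lower (median -0.46), but with PCB-153 alone 7 of 10 were higher (median 0.02), while Cyp1a2 was lower in both. Their summed level ranged from 90092 to 106242 and 73227 to 100444 in the wild-type vehicle and PCB-153 livers, and from 50587 to 103475 and 65766 to 138183 in the knockout ones. Of 9 periportal genes 7 were higher (median 0.37), and the histidine ammonia-lyase gene Hal (0.53, limma adjusted p = 0.00786) and the glutaminase gene Gls2 (0.53, 0.035) rose. Their sum ranged from 133711 to 222583 and 128578 to 227479 in wild type and from 204273 to 273889 and 162992 to 250168 in the knockout. Endothelial genes were higher for 7 of 7 (median 0.49), with Pecam1 (0.52, limma adjusted p = 0.0481) and Tek (0.58, 0.0286) called, and sums of 1160 to 1767 and 1209 to 2038 in wild type against 1379 to 2455 and 1706 to 1970 in the knockout. With 1 liver left out, Hal stayed called in all 20 fits, while Gls2 was lost in 9, Pecam1 in 16 and Tek in 6. No gene of these 3 lists was at 0. Outside these lists, immediate early genes such as Fos were lower in the knockout for 9 of 9 tested (median -0.41), and none was called. All 9 were lower with vehicle alone (median -0.38) and with PCB-153 alone (median -0.43) too. The part of zonation, cell content or immediate early genes in the Cyp1a2 difference was not tested.

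Most other AHR battery genes were higher rather than lower in knockout livers. Of the 12 tested, 9 were higher and 3 lower over both exposures (median 0.14), and 2 were called higher. Over all 16155 genes 51.2% were higher (median 0.01) and 2.12% were called higher. The glutathione transferase gene Gsta1 held means of 124 and 154 in wild type and 524 and 339 in the knockout (1.24 ± 0.34 SE, limma adjusted p = 0.0386). The coumarin hydroxylase gene Cyp2a5 held 4297 and 4071 against 5821 and 8801 (0.80 ± 0.14 SE, limma adjusted p = 0.0016). With 1 liver left out the Gsta1 call was lost in 14 of 20 fits and that of Cyp2a5 in 0. Both are also known targets of other xenobiotic receptors and of NRF2. Cyp2b10 rose in the same comparison (1.21 ± 0.18 SE, limma adjusted p = 0.000224). Which regulator lies behind these rises was not tested. Within the receptor complex none of 6 was called, with Ahr at 0.44 (limma adjusted p = 0.152) and a median of 0.01. Kynurenine, made from tryptophan, is a natural AHR ligand. Of 7 genes for enzymes that act on tryptophan or kynurenine, 6 were tested and none was called (median -0.04).

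**Figure D4:**
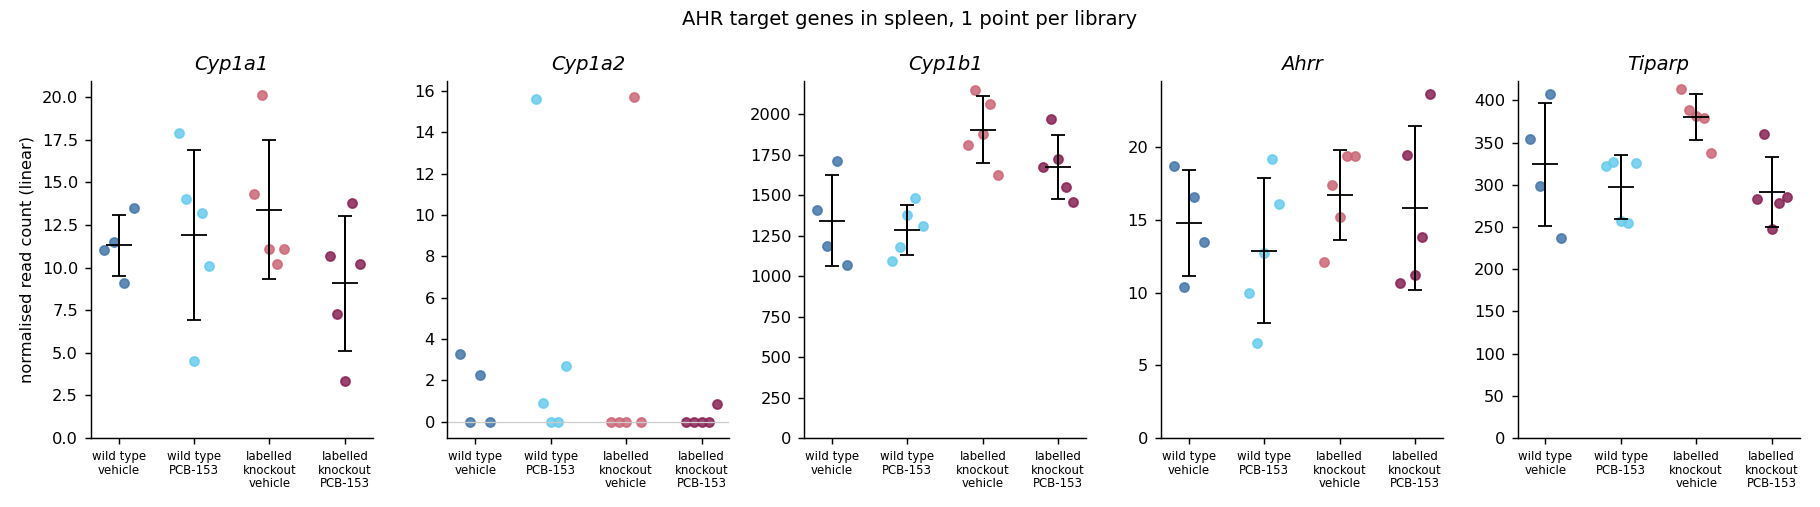
Normalised read count (vertical axis, linear) of the 5 genes in each of 19 spleens by labelled group, 1 point per library, with mean ± SD beside the points except for Cyp1a2, which is at 0 in most libraries. Cyp1b1 lies higher in most spleens labelled knockout.

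In spleen the comparison of labelled genotypes was led by Cyp1b1. Its values were 1408, 1186, 1712 and 1070 in labelled wild-type vehicle spleens (replicates 1, 3, 4 and 5) and 1092, 1178, 1378, 1482 and 1308 in labelled wild-type PCB-153 spleens. Spleens labelled knockout held 1811, 2152, 1878, 2064 and 1624 with vehicle and 1675, 1975, 1723, 1550 and 1459 with PCB-153. The genotypes overlapped only slightly, through the wild-type vehicle replicate 4 at 1712 and the PCB-153 replicate 4 at 1482. Averaged over exposures Cyp1b1 was higher in spleens labelled knockout by 0.45 ± 0.08 SE on the log2 scale (fold 1.37, interval 1.21 to 1.55; limma adjusted p = 0.0253). It was the 1 of 4 tested members called, where 0.136% of 19058 spleen genes were called. With vehicle alone the difference was 0.52 ± 0.12 SE (limma adjusted p = 0.239, 0.0315% of genes called) and with PCB-153 alone 0.38 ± 0.12 SE (limma adjusted p = 0.197, 0.157% of genes called). In the authors' deposited table the vehicle difference was 0.50 with an adjusted p of 0.0736.

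The Cyp1b1 call also depended on single libraries. It was lost in 7 of 19 fits that left out 1 spleen (without labelled knockout vehicle replicates 2 or 4, wild-type vehicle replicates 1, 3 or 5, or wild-type PCB-153 replicates 1 or 2; limma adjusted p 0.0605 to 0.0716), with the difference between 0.40 and 0.51 in all 19. Without the 4 spleens high in hepatocyte or pancreatic genes it was 0.42 (limma adjusted p = 0.0994). Leaving out wild-type vehicle replicate 4 brought the vehicle difference to 0.64 (limma adjusted p = 0.0339).

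Marker genes of stromal cells, macrophages and endothelial cells were compared alongside. The genes most like Cyp1b1 in its deviations over 19 spleens, of 12484 genes, were Pdgfra (r 0.87), the receptor that marks fibroblasts and reticular stroma, Shroom2 (0.85) and Arhgef15 (0.82). Pdgfra was higher in spleens labelled knockout as well (means 589 and 585 against 800 and 839, log2 difference 0.49 ± 0.09 SE, limma adjusted p = 0.0301). It was the 1 called gene of 10 stellate cell and fibroblast genes, of which 8 were higher (median 0.14). Their summed level overlapped between groups: 20764 to 26208 and 20474 to 28139 in labelled wild type, 20974 to 24601 and 22597 to 33872 in labelled knockout. Of 8 macrophage genes tested all were higher (median 0.24) and Marco, a scavenger receptor of marginal zone macrophages, rose (0.66 ± 0.12 SE, limma adjusted p = 0.0172). The macrophage sums were 16891 to 19418 and 14698 to 18215 in labelled wild type, and 18986 to 24876 and 17037 to 28612 in labelled knockout. Of 7 endothelial genes 5 were higher and 2 lower (median 0.15), and none was called. The endothelial sums were 6147 to 8549 and 6721 to 8102 in labelled wild type, and 8065 to 9220 and 6592 to 9659 in labelled knockout. With 1 spleen left out the Pdgfra call was lost in 13 of 19 fits and that of Marco in 2, and without the 4 spleens high in hepatocyte or pancreatic genes both were lost (limma adjusted p = 0.0684 and 0.0994). No gene of these lists was at 0, and the part of cell content in the Cyp1b1 difference was not tested.

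The other tested members were not called between labelled spleen genotypes. Averaged over exposures, Cyp1a1 gave -0.08 ± 0.25 SE, Ahrr 0.23 ± 0.20 and Tiparp 0.11 ± 0.09 (limma adjusted p = 0.937, 0.719 and 0.698). Their intervals reached folds of 0.66 to 1.36, 0.87 to 1.58 and 0.95 to 1.23. None of the 7 receptor complex genes was called (among them Ahr 0.14, Arnt 0.08, Arnt2 0.27, Hsp90aa1 -0.18, Hsp90ab1 -0.13 and Ptges3 -0.02; limma adjusted p 0.32 to 0.96 for these 6). Of the 12 other battery genes tested 9 were higher and none was called (median 0.04).

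For PCB-153 in spleen the smallest p of any tested member was that of Tiparp, while Cyp1a1, with few reads, had a larger and less precise difference. Spleens labelled knockout held 414, 388, 381, 379 and 338 with vehicle and 283, 360, 248, 278 and 285 with PCB-153. The PCB-153 spleens were lower except for replicate 2 at 360, which lay above the lowest vehicle spleen. The log2 difference was -0.39 ± 0.13 SE (fold 0.76, interval 0.64 to 0.91), which missed the threshold (limma adjusted p = 0.0655), in a comparison where 5.3% of 19058 genes were called. The authors' deposited table gives the same -0.39 with an adjusted p of 0.0321, and DESeq2 on the recovered reads gave an adjusted p of 0.0332, with 11.8% of genes called. Without labelled knockout PCB-153 replicate 2 the difference was -0.47 (limma adjusted p = 0.0123), and it was called also without wild-type vehicle replicate 4 (0.0435) or 5 (0.0397), which enter only through the shared spread. Without the 4 spleens high in hepatocyte or pancreatic genes it was -0.37 (limma adjusted p = 0.421), a fit with 8 called genes against 1010.

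In labelled wild-type spleens Tiparp held 354, 298, 407 and 237 with vehicle and 322, 327, 257, 255 and 326 with PCB-153, a difference of -0.10 ± 0.13 SE (limma adjusted p = 0.943). Whether the 2 differences differ was tested by the interaction, which gave -0.29 (interval -0.67 to 0.09; limma adjusted p = 0.61, 0% of genes called, 1877 at an unadjusted p under 0.05, 0 by edgeR and 31 by DESeq2). Over both genotypes Tiparp differed by -0.25 ± 0.09 SE (limma adjusted p = 0.158, 0.0105% of genes called). Without labelled knockout PCB-153 replicate 2 that became -0.29 (limma adjusted p = 0.0353). The genes most like Tiparp over 19 spleens were Hif1a (r 0.84), which encodes an oxygen-regulated transcription factor that also pairs with ARNT, G3bp2 (0.83) and Fam102b (0.81).

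Cell type genes also differed in the labelled knockout comparison. Pancreatic enzyme genes were higher for 6 of 6 (median 4.65, Ctrb1 and Try4 called), with sums of 441 to 575 with vehicle and 527 to 56155 with PCB-153. B cell genes fell for 5 of 5 (median -0.60), with summed levels of 28761 to 37955 with vehicle and 16424 to 27594 with PCB-153. Of 9 neutrophil genes 6 rose (median 0.66, sums 3446 to 5006 and 4536 to 8636), and of 6 erythroid genes 3 rose (median 0.53, sums 1285317 to 2064669 and 1901554 to 2822247). Dendritic cell genes were lower for 6 of 7 (median -0.22, Cd209a and Siglech called, sums 3632 to 4006 and 2900 to 3994). Of 10 stellate cell and fibroblast genes 8 were higher (median 0.15), with Col1a1 called. None of these genes was at 0, and their part in the Tiparp difference was not tested. Of the genes for enzymes that act on tryptophan or kynurenine, Kmo (-0.51 ± 0.11 SE, limma adjusted p = 0.0259) and Il4i1 (-0.45 ± 0.11 SE, 0.0309) fell, 2 of 5 genes tested. All of these calls were lost without labelled knockout PCB-153 replicate 4, when 10 genes in all were called. They were all lost too without labelled knockout PCB-153 replicate 3, or without labelled knockout vehicle replicate 3 or 5. Those spleens were not among the 4 high in hepatocyte or pancreatic genes. Without these 4 spleens 5 of the 6 neutrophil calls were left and no other. Every gene kept its direction in all of these fits. Il4i1, an amino acid oxidase of B cells and myeloid cells, makes AHR ligands from tryptophan. None of the 7 receptor complex genes and none of the 12 battery genes was called (medians 0.04 and 0.00).

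The remaining members were not called for PCB-153 in spleen. Cyp1b1 differed by -0.05 in labelled wild type (fold 0.81 to 1.16) and -0.19 in labelled knockout (fold 0.74 to 1.04; limma adjusted p = 0.969 and 0.334). In labelled wild type, where 0% of genes were called (727 at an unadjusted p under 0.05, 0 by edgeR and 3 by DESeq2), Ahrr differed by -0.24 and Cyp1a1 by -0.02 (limma adjusted p = 0.943 and 0.998). Group means of Ahrr were 14.8, 12.9, 16.7 and 15.8 normalised reads in labelled wild-type vehicle, labelled wild-type PCB-153, labelled knockout vehicle and labelled knockout PCB-153, and it differed by -0.12 in labelled knockout (limma adjusted p = 0.828). Those of Cyp1a1 were 11.3, 11.9, 13.4 and 9.07, from 3 to 22 reads per library, and it differed by -0.58 in labelled knockout (fold 0.41 to 1.09; limma adjusted p = 0.306). With so few reads the intervals of Cyp1a1 and Ahrr are wide. The genes most like Ahrr over spleens were Pdia4 (r 0.87), Padi2 (0.86) and Akna (0.86), and those most like Cyp1a1 were Cdk12 (0.76), Tdrkh (0.76) and Mllt10 (0.74). Among the 6 pairs of spleen members, Cyp1b1 and Tiparp had the highest correlation, r 0.53 (permutation p = 0.0199, adjusted p = 0.119; rho 0.56, p = 0.0137; r 0.49 without the 2 spleens farthest from the median, 0.46 within groups), and no pair passed adjustment.

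Cyp1a2 reads in spleen came almost entirely from a few libraries. There were 43 reads in all, in 7 of 19 libraries. Labelled wild-type PCB-153 replicate 1 held 14 reads (15.6 normalised) and labelled knockout vehicle replicate 4 held 17 (15.7). Labelled wild-type vehicle replicates 1 and 4 held 3 each, labelled wild-type PCB-153 replicate 5 held 4, and 2 libraries held 1 read. In the other 12 libraries the count was 0, which allows up to 3 reads. The 5 spleens with at least 3 Cyp1a2 reads were also the 5 highest for the summed hepatocyte genes (316, 589, 1468, 4052 and 12501, against 34.4 to 173 in the other 14). Per 1000 reads of albumin, Alb, the livers held 2.56 to 8.24 Cyp1a2 reads. Labelled wild-type PCB-153 replicate 1 held 5.49 (exact Poisson 95% interval 3.0 to 9.21, counting error only), within that range. Labelled knockout vehicle replicate 4 held 1.76 (1.02 to 2.82), below every liver, though its interval reached into their range. Labelled wild-type vehicle replicates 1 and 4 held 3.27 (0.675 to 9.56) and 5.87 (1.21 to 17.2). Labelled wild-type PCB-153 replicate 5 held 13.7 (3.72 to 35.0), above every liver with a wide interval. Cyp1a1 reads were also present with few Alb reads: in the spleen with the fewest, labelled knockout vehicle replicate 3, Cyp1a1 held 11.1 normalised reads. No pairwise comparison of spleen Cyp1a2 passed (exact two-sided permutation test, lowest p = 0.167, adjusted at least 0.667), and whether those reads come from liver tissue was not tested.

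**Figure D5:**
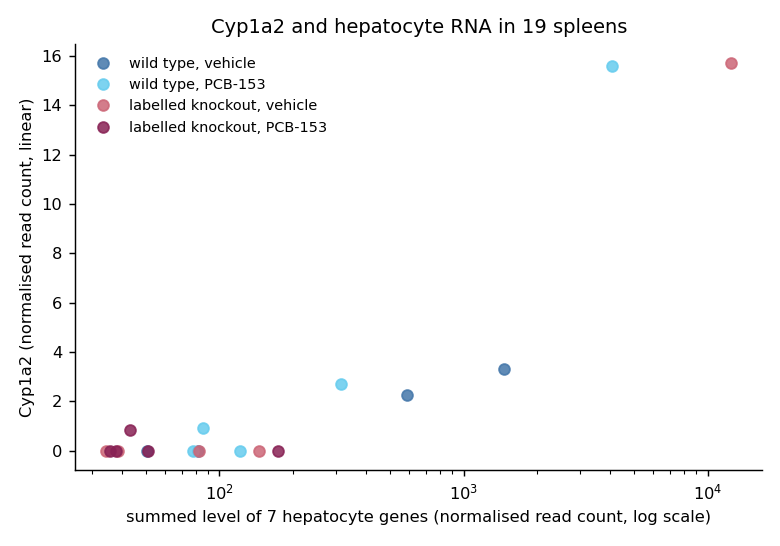
Cyp1a2 (normalised read count, linear vertical axis) against the summed level of 7 hepatocyte genes (log horizontal axis) in 19 spleens. The 2 spleens near 15.6 for Cyp1a2 have the 2 highest hepatocyte sums, and the spleens with sums up to 173 hold at most 1 Cyp1a2 read.

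Over both tissues, 14 comparisons were fitted. In liver 1 of 21 tests of a member was called and 2 had an unadjusted p under 0.05, and in spleen 1 of 28 and 5. Over all genes tested in the same comparisons, 0.945% of liver tests and 0.805% of spleen tests were called, and 11.2% and 12.9% had an unadjusted p under 0.05, so the members' counts are near the background. Neither call concerned PCB-153.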

How the data were processed

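Per the labels' protocols, Trizol was used to extract RNA from frozen liver and spleen, and the library kit was Illumina TruSeq. The labels name 2 versions of the kit, 1 of them stranded. Reads were handled with STAR 2.6.0, featureCounts, FastQC and DESeq2 (its version written as 3.8) on mm10, per the submitters' processing notes, which are the only source for these tools here. The authors deposited, per tissue, a signal table of read counts divided by 1 size factor per library. Every value above 0 was a whole multiple of a library's step, so reads were recovered (100% whole within 0.05 reads). A further set of tables deposited by the authors holds their own comparisons, with log2 fold changes, p-values and test scores (the last not used). In each tissue 26 gene symbols that had become dates were restored from those comparison tables.

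Groups came from sample titles. In each tissue 1 limma model (limma 3.58.1, R 4.3.3, trend on) was fitted over the 4 groups to log2(value + 1) for genes with a mean of at least 10 (16155 in liver, 19058 in spleen), with Benjamini-Hochberg adjustment and 7 contrasts, 2 of them averages that share all libraries with the others. A fold change on this scale understates changes of low genes. Members below the minimum mean had an exact permutation test, and correlations 100000 permutations. The limma step was tried on simulated data with planted changes, all larger than those called here for the members. The permutation tests and correlations were not tried in that way. Alternatives were other pseudocounts, minimum means and scaling, 2-group fits, a replicate block, edgeR 4.0.16 and DESeq2 1.42.0 on the recovered reads, and leaving out each library. The 5 members are named in every comparison. Of the gene lists, every receptor complex gene and up to 4 called genes per list and comparison are named. The 3 genes most like each member, among genes with a mean of at least 50, are named too. Of the genes under these rules, 2 are not reported here by name. The members and lists were chosen with earlier results of these data known. Htatip2, Nqo1 and Ugt1a6a, and the genes that describe the low livers, were chosen after their values were seen. Sequences and starts are from RefSeq (GRCm38.p6, all 5 members matched), and gene positions from GENCODE M21.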

Additional observations from a re-analysis of the deposited data

Results flagged for a closer look

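In 3 spleen groups 1 library lay far from the others for Cyp1a2 (the gap to its nearest neighbour exceeded Dixon's 95% limit). These were labelled wild type with PCB-153 replicate 1 (15.6 normalised reads), labelled knockout with vehicle replicate 4 (15.7) and labelled knockout with PCB-153 replicate 5 (0.847, a single read). Dixon's limit marks about 1 in 20 groups of normally distributed values by chance, and these counts are mostly 0. A group with 1 library above 0 and the others at 0 is always marked, as in both labelled knockout groups. The first 2 are the spleens with the highest summed hepatocyte genes, and the third rests on 1 read beside 4 libraries without any.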

How the results depend on the processing

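Of 1381 member fold changes under alternatives, 1310 kept direction and side of the threshold, as did 369 of 400 counts of called members, 185 of 192 correlations and all 39 tests of low members. The count of called members in the averaged liver genotype comparison went from 1 to 0 without the minimum mean, with the replicate block (Cyp1a2 -0.57, limma adjusted p = 0.0508) and with edgeR. In the averaged spleen genotype comparison it went from 1 to 0 without the 4 spleens high in hepatocyte or pancreatic genes (Cyp1b1 0.42), and in the labelled knockout PCB-153 comparison from 0 to 1 with DESeq2 (Tiparp -0.39). Leaving out 1 library moved that count between 0 and 1 in these 3 comparisons, in the spleen vehicle genotype comparison and in the averaged spleen exposure comparison. Signs turned near 0 for liver Cyp1a2 over both genotypes with quantile normalisation (0.01) and for spleen Cyp1a1 in labelled wild type with a pseudocount of 5 (0.01), edgeR (0.08) and DESeq2 (0.07). Without the 4 spleens, Cyp1b1 for PCB-153 in labelled wild type became 0.01, Ahrr for PCB-153 in labelled knockout 0.13 and Tiparp between genotypes with PCB-153 0.02. The cause was not tested.

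With 1 library left out, liver differences for PCB-153 in the knockout ranged from -0.29 to 0.15 (Cyp1a1), -0.06 to 0.28 (Cyp1a2) and -0.1 to 0.16 (Tiparp), the Cyp1a1 interaction from -0.11 to 0.33 and Cyp1a2 over both genotypes from -0.1 to 0.07. Spleen differences for PCB-153 in labelled wild type ranged from -0.19 to 0.26 (Cyp1a1), -0.15 to 0.08 (Cyp1b1) and -0.24 to 0.02 (Tiparp). The Tiparp genotype difference with PCB-153 ranged from -0.11 to 0.02, the Ahrr interaction from -0.09 to 0.27 and the averaged Cyp1a1 genotype difference from -0.22 to 0.06. The correlation of Cyp1a1 with Tiparp in liver ranged from -0.1 to 0.18, that of Cyp1a1 with Ahrr in spleen from -0.22 to 0.06, and that of Cyp1b1 with Tiparp from 0.44 to 0.62, the latter (permutation adjusted p = 0.0426) without labelled knockout PCB-153 replicate 3.

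The numbers of all genes called differed more. In the labelled knockout spleens it was 1010 for PCB-153, 10 to 3704 with 1 library left out (fewest without PCB-153 replicate 4, most without replicate 2), 232 without the minimum mean, 184 in a 2-group fit and 2011 with DESeq2. The averaged spleen exposure comparison gave 2, and 0 to 2472 with 1 library left out (most without labelled knockout PCB-153 replicate 2). The averaged genotype comparisons gave 737 in liver (469 to 1228) and 26 in spleen (12 to 80, and 227 with DESeq2). The vehicle genotype comparison in liver gave 98 (49 to 148, and 266 with DESeq2).

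The replicate numbers did not pair the libraries: same-numbered libraries had correlations of deviations from -0.38 to 0.45 in liver and -0.23 to 0.27 in spleen, and 3 and 5 libraries were closest to their own number. Apart from Cyp1a2 the block changed no member's call. The alternatives for low members and correlations, the exclusion of 4 spleens and the repeated counts of listed genes were chosen after the data were seen. Depth limits Cyp1b1 and Ahrr in liver and Cyp1a1, Ahrr and Cyp1a2 in spleen, with 0 to 28 reads per library.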
